A study of Mus musculus with 59 samples.

Results

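Transcriptomes were compared between cells carrying TCF-1 without segment L6 (DL6) and cells carrying TCF-1 without segment L7 (DL7), with 2 libraries of each among the 59 samples of the series. The members were the libraries of the cell line whose treatment label names a retrovirus (RV) with DL6 or DL7 TCF-1, and the names were read as deletions of the segments L6 and L7. The host was scid.adh, a line from a mouse thymic lymphoma with features of early T cells, in which Tcf7, the gene for TCF-1, had been knocked out. All groups share that knockout, retroviral delivery and sorting of live transduced cells 72 h after transduction. Wild-type TCF-1 (WT) and the empty vector (EV), with 2 libraries each, give the response of this line to the intact protein. The other groups of the line carried DL1, DL2 or DHMG, read as lacking L1, L2 or the DNA-binding HMG box, and all 14 libraries set the spread between replicates. The lengths and positions of L6 and L7 are not given in the sources used here, and nothing says that replicates were separate cultures, so the p-values below rest on a spread that may be purely technical.

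TCF-1 is a transcription factor that Notch signalling switches on in thymic progenitors, and it is needed for progenitors to enter the T cell lineage. It binds DNA through its HMG box, at sites with the core CTTTGA or CTTTGT, and recruits coactivators or corepressors through other stretches of the protein, much of which is intrinsically disordered. The direct comparison asks whether loss of L6 and loss of L7 leave this line in different states.

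DL6 and DL7 cells were close to each other in nearly all genes. Of 10939 genes tested, 11 (0.101%) passed an adjusted p of 0.05 (edgeR quasi-likelihood test, Benjamini-Hochberg method). There were 5 genes higher in DL6 (0.0457%), namely Cyp11a1, Tcf7, Gzma, Skp1a and Timp2. There were 6 genes lower in DL6 (0.0548%), namely Gm25835, Gm26917, Dnah8, Itga4, Notch3 and Arsi. All 11 changed by less than 2-fold. In each the 2 DL6 libraries lay apart from the 2 DL7 libraries, which a call nearly requires, so this adds no support. The share of all genes with such separation was not counted. For scale, WT against EV in the same fit called 2722 genes (24.9%), with 1348 higher in WT (12.3%) and 1374 lower in WT (12.6%). That count was 1620 to 1760 without any single WT or EV library and 1614 in DESeq2. At an unadjusted p under 0.05, 813 genes (7.43%) differed between DL6 and DL7. Most calls needed all 4 libraries. Without any single DL6 or DL7 library, most of the 11 genes were no longer called. Tcf7 stayed called each time, with a log2 ratio of 0.39 to 0.42. With each library's trend on exon length removed, an alternative chosen after seeing the data, there were 6 calls, 1 higher and 5 lower in DL6. In bulk libraries, fewer cells that express a gene and less of its RNA per cell cannot be told apart.

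**Figure D1:**
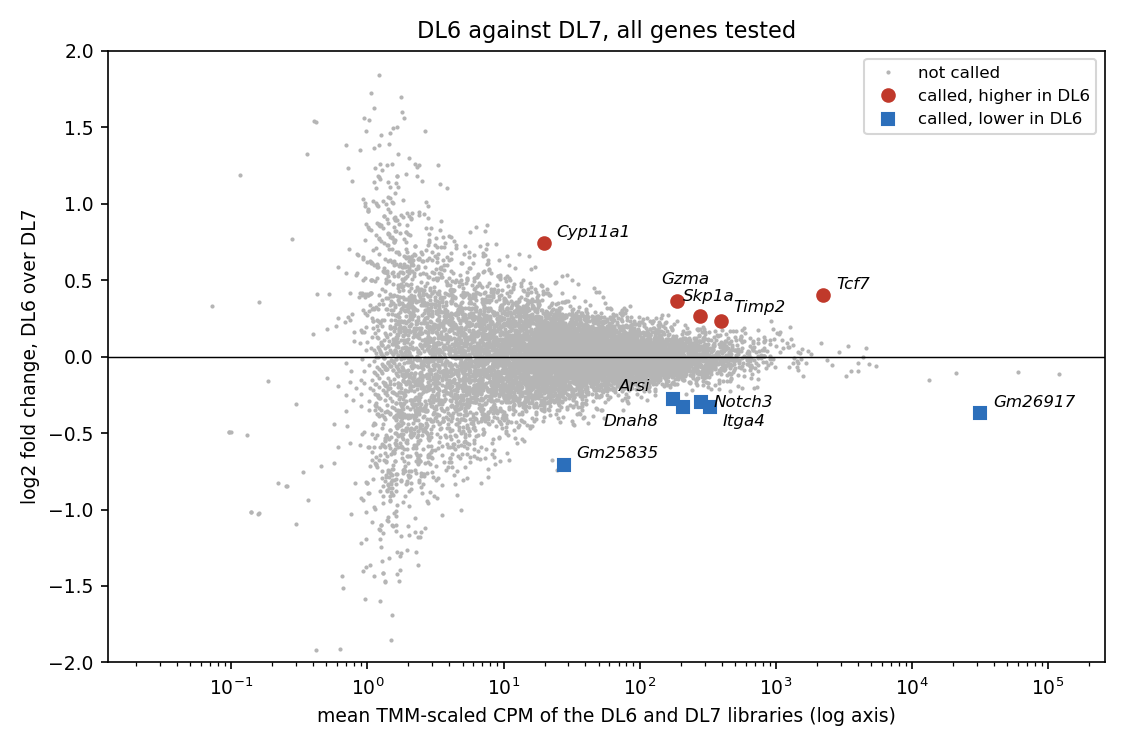
Log2 fold change of DL6 over DL7 (vertical axis) against the mean TMM-scaled CPM of the 4 libraries (horizontal log axis) for the genes tested, with the 5 genes called higher in DL6 as red circles and the 6 called lower as blue squares. Called genes lie close to the cloud of uncalled genes, and 16 genes of low level lie outside the plotted range of 2 log2 units either way.

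The precision of the comparison depended on the level of a gene. Levels are given as CPM, the count of a gene scaled to library size, corrected for library composition by edgeR's TMM. Of the 1869 genes over 100 CPM, the 95% interval of the DL6 over DL7 ratio lay within 1.2-fold either way in 1614 (86.4%) and within 1.5-fold in all 1869. Between 20 and 100 CPM, 4290 of 4380 genes (97.9%) had an interval within 1.5-fold. Between 5 and 20 CPM the interval lay within 2-fold in 2437 of 2554 genes (95.4%), and between 1 and 5 CPM in 511 of 2005 (25.5%). For most genes under 5 CPM the interval reached past 2-fold, so a 2-fold difference was not excluded. The power to call such a difference was not computed.

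Single libraries showed the same closeness. Among the 1869 genes over 100 CPM, 27 to 56 differed by 1.2-fold or more between a DL6 and a DL7 library, against 13 between the 2 DL6 libraries and 10 between the 2 DL7 libraries. Over the 6238 genes of at least 20 CPM across all 14 libraries, the root mean square difference in log2 CPM was 0.152 to 0.159 between a DL6 and a DL7 library. It was 0.149 between the DL6 libraries and 0.138 between the DL7 libraries, so the distance across constructs was only slightly above that between replicates. Of the 21 pairs of groups, DL6 and DL7 had the closest mean profiles, at 0.118. DL6 lay 0.144 from EV and 0.259 from WT, and DL7 lay 0.153 from EV and 0.293 from WT. The distance of single DL6 libraries from WT libraries, 0.271 to 0.281, did not overlap that of DL7 libraries from WT libraries, 0.299 to 0.316. No test was run on these distances. Among DL6, DL7 and WT, the share of mitochondrial ribosomal RNA among gene reads had the same order. It was 17.68% and 17.8% in DL6, 18.26% and 19.06% in DL7 and 14.87% and 15.46% in WT. That order did not extend to EV (16.49% and 16.61%, 0.279 from WT) or DL1 (10.75% and 9.85%, 0.199 from WT). The part of this share in the distances was not tested.

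**Figure D2:**
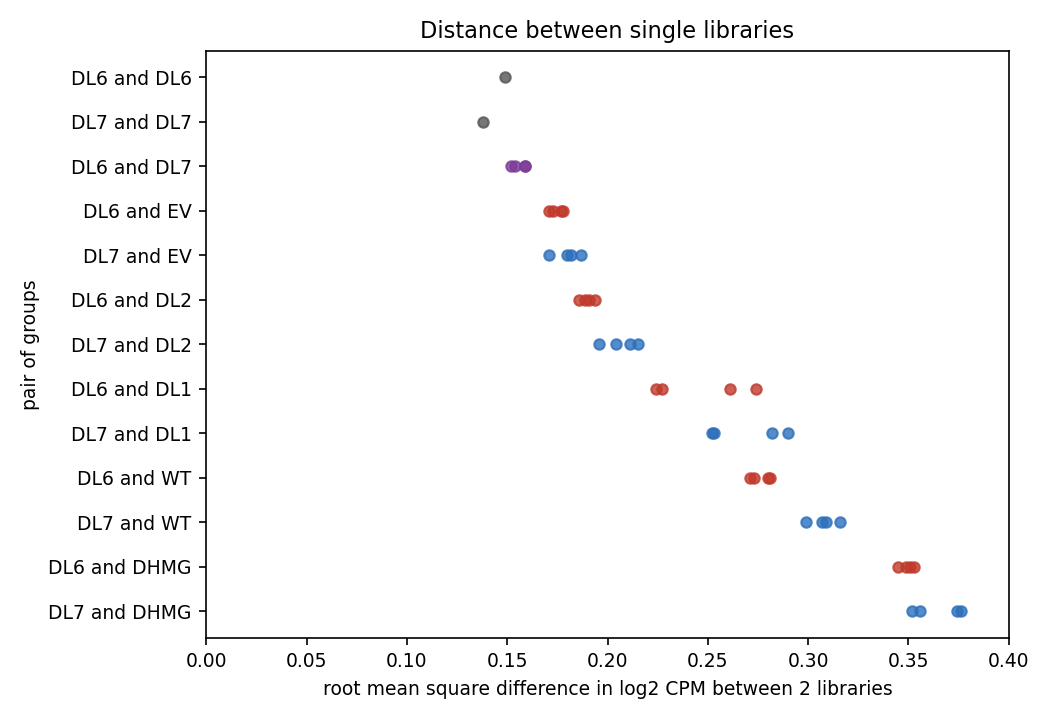
Root mean square difference in log2 CPM (horizontal axis) between 2 libraries, with 1 point for each pair of libraries and 1 row for each pair of groups. The 4 pairs of a DL6 with a DL7 library (purple) lie at 0.152 to 0.159, next to the replicate pairs (grey), while pairs with WT lie at 0.271 or more.

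Counted reads in genes ranged across the 4 libraries between 5.41 and 9.48 M, and the deeper DL7 library had 9.48 M. Ptprc, the gene for CD45, which nearly all nucleated blood cells carry, was at 808 and 803 CPM in DL6 and 796 and 810 CPM in DL7. Lck, the gene for a kinase of T cell receptor signalling, had 338 and 379 CPM in DL6 and 334 and 349 CPM in DL7. Most defining markers of other blood cells had no read in the 4 libraries, with 13 of 20 myeloid markers at 0 (Spi1, Lyz2 and Elane among them), 8 of 15 B lineage markers (Pax5 among them) and 10 of 12 mast cell and basophil markers (Fcer1a and Gata2 among them). The summed level of the myeloid markers was 14.6 to 17.8 CPM in DL6 and 15.2 to 16 CPM in DL7, and that of the B lineage markers was 8.19 to 8.92 CPM in DL6 and 9.24 to 10.6 CPM in DL7. The mast cell and basophil sum was 23.5 to 24.4 CPM in DL6 and 17.4 to 21.4 CPM in DL7, nearly all of it Cpa3. Of the erythroid and megakaryocyte markers 10 of 14 were at 0, with sums of 5.28 to 8.23 CPM in DL6 and 7.42 to 10.8 CPM in DL7. Of the stroma markers 13 of 15 were at 0, and Thy1, which T cells also express, made up most of their sum of 313 to 317 CPM in DL6 and 312 to 326 CPM in DL7. The part of these sums in the results was not tested.

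The targeted gene itself differed between the constructs. Tcf7 had 2583 and 2522 CPM in DL6, against 1918 and 1939 CPM in DL7. WT cells had 1814 and 1723 CPM and EV cells 565 and 551 CPM, so both constructs were above the empty vector and the DL7 level was the one nearer to WT. The ratio of DL6 to DL7 was 1.32 (log2 0.40 ± 0.05 SE, 95% interval 0.31 to 0.50, edgeR adjusted p = 5.13e-07, n = 2 each). The call held without each of the 4 libraries in turn, with adjusted p of 8.67e-05 to 0.000476. Reads of the retroviral and the knocked-out endogenous gene are counted together, and a deleted segment adds no reads, so the ratio need not equal that of construct RNA per cell. For every other gene below, the missing segment and the construct's RNA level cannot be told apart.

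**Figure D3:**
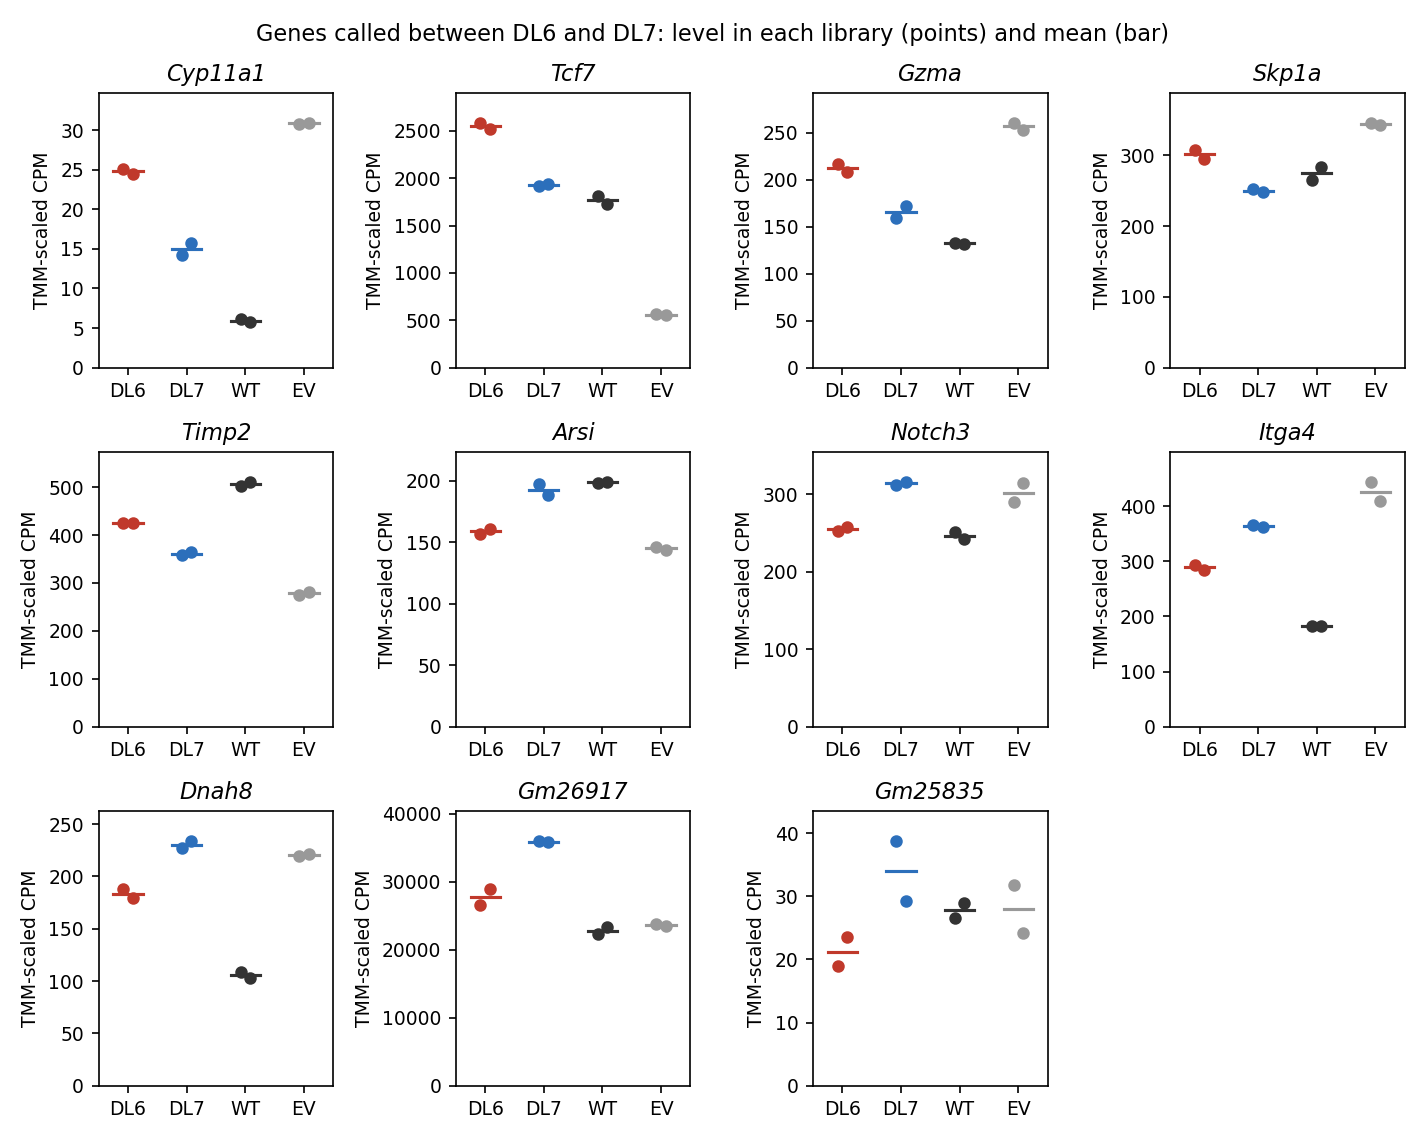
TMM-scaled CPM (vertical axes from 0, a separate scale for each gene) of the 11 genes called between DL6 and DL7, with 1 point for each library of DL6, DL7, WT and EV and a bar at each group's mean. Itga4, Notch3, Dnah8 and Timp2 lie nearer to WT in DL6, and Gzma, Cyp11a1 and Arsi nearer to WT in DL7.

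Of the 11 genes, 9 were also called in WT against EV (81.8%, which is 0.331% of the genes called there, against a background of 24.9% of all genes tested). The background among genes of a like level was not counted. Apart from Tcf7, 8 genes were called in both comparisons, and by sign alone they divided evenly. In 4 (Itga4, Dnah8, Notch3 and Timp2) DL6 lay on the WT side of DL7, and in 4 (Gzma, Cyp11a1, Arsi and Skp1a) DL7 lay on the WT side of DL6. In Skp1a DL7 lay past WT, with 252 and 248 CPM against 265 and 284 CPM in WT. The levels of WT and EV below show which direction WT gave, which need not be particular to the intact protein. In DHMG, Notch3 was near WT (245 and 244 CPM), and Cyp11a1 (18.8 and 13.1 CPM) and Dnah8 (146 and 169 CPM) lay between WT and EV. Itga4, Gzma, Timp2, Arsi and Skp1a were nearer to EV in DHMG. Whether a level near WT reflects kept function was not tested.

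Notch3 and Itga4 encode surface receptors of T cell precursors, and both were lower in DL6. Notch3, a Notch receptor at chr17:32120820-32166852 in GRCm38, had 252 and 258 CPM in DL6, against 312 and 316 CPM in DL7. WT cells had 251 and 242 CPM and EV cells 290.5 and 314 CPM, so DL6 was near WT and DL7 near EV. The DL6 to DL7 ratio was 0.813 (log2 -0.30 ± 0.06 SE, edgeR adjusted p = 0.00975). Without any single DL6 or DL7 library the adjusted p was 0.126 to 0.336. Itga4, the integrin alpha 4 chain that binds VCAM-1 (chr2:79255426-79333123), had 294 and 285 CPM in DL6, against 365 and 362 CPM in DL7. WT cells had 183 and 182 CPM and EV cells 444 and 409 CPM, so DL6 and DL7 both lay between them, DL6 closer to WT. The ratio was 0.796 (log2 -0.33 ± 0.06 SE, edgeR adjusted p = 0.00129), and the adjusted p was 0.0177 without DL7 replicate 2 and 0.0619 to 0.144 without any other of the 4 libraries. Itgb1, a beta chain with which this integrin pairs, was not called, at 184 and 189 CPM in DL6 and 183 and 174 CPM in DL7.

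Gzma, the cytotoxic serine protease granzyme A (chr13:113093825-113100981), was higher in DL6. It had 217 and 208 CPM in DL6, against 159 and 172 CPM in DL7, with 133 and 132 CPM in WT and 260.4 and 253 CPM in EV. Both DL6 libraries were above both DL7 libraries, and DL6 was the group nearer to EV. The ratio was 1.29 (log2 0.37 ± 0.07 SE, edgeR adjusted p = 0.00975), with adjusted p of 0.0177 without DL7 replicate 2 0.133 to 0.57 without any other library and 0.0733 with the length trend removed. Of the 15 natural killer and cytotoxic markers 11 had no read in the 4 libraries, among them Prf1, Gzmb, Ncr1 and Eomes. Gzma made up most of their sum of 322 to 332 CPM in DL6 and 277 to 298 CPM in DL7. The T-box factor gene Tbx21 had 16.6 and 21.1 CPM in DL6 and 16.7 and 14.5 CPM in DL7, which overlap.

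Cyp11a1 had the largest ratio among the called genes. It encodes the mitochondrial enzyme that cuts the cholesterol side chain, the entry to steroid synthesis (chr9:58006411-58027023). DL6 libraries had 25.1 and 24.5 CPM, against 14.2 and 15.7 CPM in DL7 libraries, with 6.18 and 5.71 CPM in WT and 30.8 and 30.9 CPM in EV. Neither construct reached the WT level, and DL7 was closer to it. The ratio was 1.67 (log2 0.74 ± 0.16 SE, 95% interval 0.42 to 1.07, edgeR adjusted p = 0.0445), and the adjusted p was 0.126 to 0.678 without any single library and 0.0568 with the length trend removed. Of 28 measured genes of cholesterol synthesis none was called between DL6 and DL7, against 0.101% of all genes tested. At that share a list of this size would usually hold none. Their median log2 ratio was 0.03.

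Timp2, Arsi, Skp1a and Dnah8 made up the other annotated protein-coding genes. Timp2, an inhibitor of matrix metalloproteinases (chr11:118301069-118355740), had 425 CPM in both DL6 libraries, against 358 and 364 CPM in DL7, between 502 and 511 CPM in WT and 275 and 281 CPM in EV. Its ratio was 1.18 (edgeR adjusted p = 0.0478), and it was no longer called without the DHMG libraries (0.0842), with counts that ignore strand (0.0552), with the length trend removed (0.0733) or without any single library (0.227 to 0.624). Arsi, an arylsulfatase gene, had 157 and 161 CPM in DL6, against 197 and 188 CPM in DL7. Its DL7 level was close to WT (198 and 199 CPM), and its DL6 level was closer to EV (146 and 144 CPM). Its ratio was 0.824 (edgeR adjusted p = 0.0445), and the adjusted p was 0.0642 without the DHMG libraries, 0.071 with counts that ignore strand and 0.11 to 0.678 without any single library. Skp1a, a core subunit of SCF ubiquitin ligases (chr11:52231995-52246858), had 308 and 295 CPM in DL6, against 252 and 248 CPM in DL7, with 265 and 284 CPM in WT and 346 and 343 CPM in EV. Its ratio was 1.2 (edgeR adjusted p = 0.0251, with 0.144 to 0.376 without any single library and 0.11 with the length trend removed). Skp1a is the neighbour of Tcf7 (chr11:52252371-52283014), with the ends of both genes facing each other, and it was counted on the opposite strand. Dnah8, an axonemal dynein heavy chain gene (chr17:30624354-30877365), had 188 and 179 CPM in DL6, against 227 and 234 CPM in DL7, with 109 and 103 CPM in WT and 220 and 221 CPM in EV, so DL6 lay between WT and EV and DL7 above both. Its ratio was 0.795 (edgeR adjusted p = 0.013, with 0.207 to 0.462 without any single library and 0.166 with the length trend removed).

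The start regions of the called genes are shown because TCF-1 binds the core CTTTGA or CTTTGT. RefSeq promoter windows of GRCm38.p6, from 250 bases before to 50 after a start, were matched for all 5 genes called higher and 3 of the 6 called lower. The 5 windows below belong to the called surface receptor and granzyme genes and to the called genes whose window held a core on either strand. The windows of Tcf7, Cyp11a1 and Timp2 held no core and are not shown. They are Notch3 (chr17:32166841-32167140, minus strand), Itga4 (chr2:79255176-79255475, plus strand), Gzma (chr13:113100932-113101231, minus strand), Skp1a (chr11:52231745-52232044, plus strand) and Dnah8 (chr17:30626686-30626985, plus strand). Each is written 5′ to 3′ on the gene's strand, and capitals mark the core.
Notch3: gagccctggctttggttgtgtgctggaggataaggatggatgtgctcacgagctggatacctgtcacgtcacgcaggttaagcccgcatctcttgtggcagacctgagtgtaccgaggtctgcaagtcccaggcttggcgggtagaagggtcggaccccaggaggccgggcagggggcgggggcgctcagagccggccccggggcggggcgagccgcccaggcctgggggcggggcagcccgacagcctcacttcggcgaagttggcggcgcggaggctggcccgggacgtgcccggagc
Itga4: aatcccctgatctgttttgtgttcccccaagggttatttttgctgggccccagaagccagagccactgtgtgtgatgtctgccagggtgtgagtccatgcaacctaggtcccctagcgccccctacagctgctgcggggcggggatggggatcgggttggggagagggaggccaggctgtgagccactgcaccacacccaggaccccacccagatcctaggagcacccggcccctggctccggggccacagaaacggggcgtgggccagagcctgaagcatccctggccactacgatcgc
Gzma: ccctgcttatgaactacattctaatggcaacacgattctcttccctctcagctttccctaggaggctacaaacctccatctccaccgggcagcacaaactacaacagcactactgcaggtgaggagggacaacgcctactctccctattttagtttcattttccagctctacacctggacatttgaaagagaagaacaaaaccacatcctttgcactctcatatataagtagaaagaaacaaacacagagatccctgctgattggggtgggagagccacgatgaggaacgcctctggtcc
Skp1a: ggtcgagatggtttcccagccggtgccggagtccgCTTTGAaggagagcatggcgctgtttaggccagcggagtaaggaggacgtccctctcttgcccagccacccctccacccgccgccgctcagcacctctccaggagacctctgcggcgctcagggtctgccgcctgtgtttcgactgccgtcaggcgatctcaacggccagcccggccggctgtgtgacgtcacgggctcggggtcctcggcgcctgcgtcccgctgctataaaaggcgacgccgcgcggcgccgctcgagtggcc
Dnah8: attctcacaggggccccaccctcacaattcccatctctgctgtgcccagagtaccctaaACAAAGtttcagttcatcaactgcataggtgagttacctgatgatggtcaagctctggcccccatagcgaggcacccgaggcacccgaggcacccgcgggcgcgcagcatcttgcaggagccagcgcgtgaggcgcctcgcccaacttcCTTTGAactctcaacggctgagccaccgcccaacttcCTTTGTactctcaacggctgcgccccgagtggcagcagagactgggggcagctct
The Skp1a window held 1 core, beginning 215 bases before the start. The Dnah8 window, at a start downstream of the GENCODE start of the gene, held 3, beginning 191, 42 and 5 bases before it. The core was in the windows of 1 of 5 genes called higher in DL6 and 1 of the 3 matched genes called lower, against 26.8% of the 7785 tested genes with a window. The E-box CACGTG, searched on both strands, was in none of the windows of these 8 genes, against 12.4% of tested genes with a window. The shorter sequence ACGTG, which CACGTG contains, was in the windows of 0 of the 5 genes called higher. It was in those of 1 of the 3 matched genes called lower, against 30.6% of tested genes with a window. No match means only that these letters are not in these windows.

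Gm26917 and Gm25835 are noncoding. Gm26917 is a lincRNA model (chr17:39843013-39846341) where sequence of the ribosomal RNA precursor lies in this build, so reads of this model and of the precursor cannot be told apart. It had 26538 and 28965 CPM in DL6, against 36017 and 35814 CPM in DL7, with 22274 and 23365 CPM in WT and 23782 and 23496 CPM in EV. Replicates of 1 construct could also lie far apart, with 27034 and 33456 CPM in DL1. Those of DL2 (30876 and 32088 CPM) and DHMG (43892 and 43512 CPM) were closer together. The DL6 to DL7 ratio of Gm26917 was 0.773 (log2 -0.37 ± 0.05 SE, edgeR adjusted p = 6.53e-05), and it was no longer called without DL6 replicate 1 (log2 -0.31). The small nucleolar RNA Gm25835 (chr11:69668852-69668995) had 18.9 and 23.5 CPM in DL6, against 38.8 and 29.3 CPM in DL7, with 26.6 and 29 CPM in WT and 31.8 and 24.2 CPM in EV. Its ratio was 0.613 (log2 -0.71 ± 0.15 SE, edgeR adjusted p = 0.0445), its call was lost without the DHMG libraries (0.0897), and its adjusted p was 0.014 without DL7 replicate 2 and 0.144 to 0.817 without any other library. Neither was called in WT against EV. Among 91 small nucleolar RNA genes the median log2 ratio of DL6 over DL7 was -0.13 and 32 were above 0, while DL7 replicate 1 lay 0.29 above DL7 replicate 2. The mitochondrial ribosomal RNA genes mt-Rnr1 and mt-Rnr2 had log2 ratios of -0.10 and -0.11 and were not called. With ribosomal, mitochondrial and precursor locus genes removed, an alternative chosen after seeing the data, the 10 other genes stayed called.

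Of 10 genes named for their large response to intact TCF-1 in earlier results, Cyp11a1 was called between DL6 and DL7 and 9 were not. Among all genes tested 0.101% were called, so the lack of a call in these 9 does not show equal levels. Ndrg1, a stress-responsive gene of growth arrest, had 159 and 157 CPM in DL6 and 165 and 156 CPM in DL7, with 3.62 and 3.91 CPM in WT and 60.4 and 57 CPM in EV. Both constructs lay above EV, while WT lay far below it. DHMG had 0 and 0.305 CPM, so the low level was not particular to intact TCF-1. The DL6 to DL7 ratio was 0.982 (95% interval 0.888 to 1.09). Ifi202b, an interferon-inducible gene, had 37.5 and 34.8 CPM in DL6 and 34.6 and 35 CPM in DL7, between 71.9 and 70.8 CPM in WT and 13 and 14.2 CPM in EV. Its ratio was 1.04 (95% interval 0.882 to 1.22). Ighm, the immunoglobulin heavy chain mu constant gene, had 5.46 and 4.8 CPM in DL6 and 6.56 and 5.4 CPM in DL7, with 16.2 and 20.2 CPM in WT and 0.948 and 2.05 CPM in EV. Ace, a peptidase gene, had 10.9 and 7.89 CPM in DL6 and 7.96 and 10.1 CPM in DL7, with 21.9 and 21 CPM in WT and 2.3 and 1.71 CPM in EV. In these 4 genes the DL6 and DL7 libraries overlapped. The 95% interval of the ratio was 0.572 to 1.24 for Ighm and 0.757 to 1.48 for Ace.

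Zcchc14, a zinc finger protein gene, had 8.38 and 10.3 CPM in DL6 and 5.7 and 4.71 CPM in DL7, with 0.7 and 0.816 CPM in WT and 13 and 11.4 CPM in EV. Its libraries did not overlap, but the ratio of 1.77 was not called (95% interval 1.24 to 2.52, edgeR adjusted p = 0.295). Cpa3, the mast cell carboxypeptidase, had 23.5 and 24.4 CPM in DL6 and 17.3 and 21.4 CPM in DL7, with 5.13 and 4.4 CPM in WT and 40.9 and 39.9 CPM in EV (ratio 1.25, adjusted p = 0.625 in edgeR). The integrin gene Itgae had 5.64 and 3.6 CPM in DL6 and 6.24 and 5.23 CPM in DL7, with 3.27 and 2.28 CPM in WT and 18.2 and 16.7 CPM in EV. Cdh1 and Nfib, which encode E-cadherin and a nuclear factor I, lay under 3 CPM in DL6 and DL7 and were not called. The 95% interval of the ratio was 0.532 to 1.18 for Itgae, 0.44 to 1.42 for Cdh1 and 0.69 to 2.96 for Nfib. That of Cpa3 was 1.02 to 1.55. None of these 9 responders was called in the 131 values that the alternatives gave for them. DESeq2 gave an adjusted p for Ndrg1 alone, and Zcchc14, Ighm, Itgae, Cdh1 and Nfib were not tested with a minimum of 50 counts.

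Of the 2722 genes called in WT against EV, 9 (0.331%) were called between the constructs, against 0.101% of all genes tested. Most calls between the constructs, 9 of 11, were of genes over 100 CPM, a band of 1869 of the 10939 genes tested. Shares at a matched level were not counted. Tcf7, whose reads include the delivered gene, was counted among the called responders and among the 2-fold responders below. WT against EV shares no library with DL6 against DL7, though both come from the same fit. Among the 238 genes that WT changed by 2-fold or more, 2 were called higher and 2 lower in DL6, DL6 was on the WT side of DL7 in 116 (48.7%), and the median log2 ratio of DL6 over DL7 was -0.02. In 215 of them the 95% interval of the DL6 to DL7 difference excluded a difference as large as that of WT against EV. Among the 2484 responders under 2-fold, DL6 was on the WT side of DL7 in 1725 (69.4%), against 55.7% of the 8217 genes not called in WT against EV. This lean was small, with a median of 0.05 log2 units toward WT. Among all responders in 5 equal groups of protein-coding genes by exon length, the share was 75% in the shortest, then 65.9%, 63.5% and 60.7%, and 71.9% in the longest, so it was higher at both ends than between them. With the length trend removed, 60.4% of all 2722 responders were on the WT side, against 67.6% without it, and 53.7% of the genes not called there, against 55.7% without it. No test was run on these shares.

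**Figure D4:**
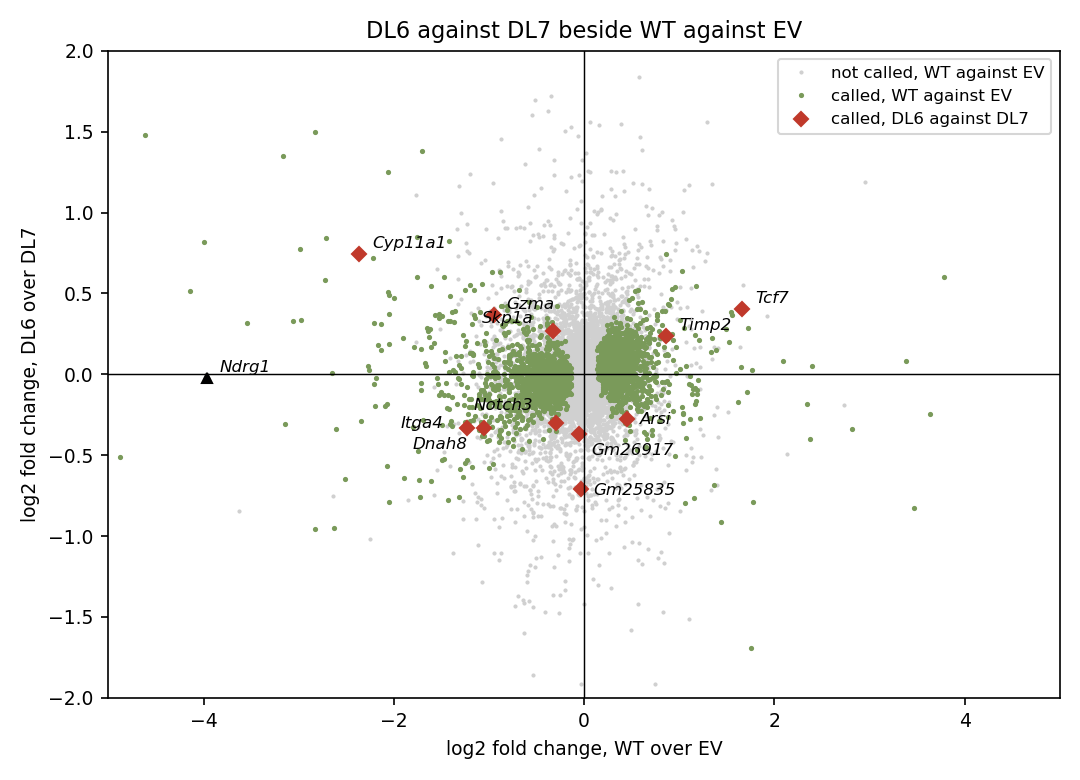
Log2 fold change of DL6 over DL7 (vertical axis) against that of WT over EV (horizontal axis) for the genes tested, with genes called in WT against EV in green and the 11 called between DL6 and DL7 as red diamonds. Genes with large WT changes, such as Ndrg1 (triangle), scatter around 0 on the vertical axis, and 16 genes lie outside the plotted range.

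Calls in the gene groups of early T cells are set beside 0.101% of all genes tested, a share at which most lists of this size hold none. Among 11 measured TCF/LEF factors and corepressors Tcf7, the delivered gene, was the single call. Of 18 measured T lineage factors none was called and the median log2 ratio was -0.06, against 0.00 for all genes tested, while WT against EV called 13 of the 18 lower, against 12.6% of all genes tested. Bcl11b, a factor of T cell commitment, had 521 and 559 CPM in DL6 and 566 and 570 CPM in DL7, and Myb, a progenitor factor, 632 and 652 CPM in DL6 and 659 and 687 CPM in DL7. Lef1, the relative of TCF-1, had 716 and 688 CPM in DL6 and 773 and 779 CPM in DL7, which did not overlap but was not called (log2 -0.14, edgeR adjusted p = 0.362). Of 12 Notch response genes Notch3 was lower and 10 were not called. Tcf7 was higher, but its reads include the retroviral gene, so its call does not measure a Notch response. Notch1 had 1384 and 1446 CPM in DL6 and 1513 and 1490.2 CPM in DL7, and Il2ra, which encodes CD25, had 845 and 807 CPM in DL6 and 800.3 and 801 CPM in DL7. None of 22 genes for CD3 chains and T cell receptor signalling was called, and none of 5 Wnt feedback targets, of which Myc had 384 and 381 CPM in DL6 and 399 and 389 CPM in DL7. Itga4 was the single call among 14 genes of chemokine receptors and homing. None of 13 genes for stage markers and cytokine receptors and none of 5 innate lymphoid genes was called.

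Groups for metabolism and growth held no call, and at 0.101% of all genes a list of this size would usually hold none, so the medians are given beside the counts. Of 32 low oxygen and glycolysis genes none was called and the median was 0.00, with Ldha, lactate dehydrogenase A, at 792 and 825 CPM in DL6 and 791 and 778 CPM in DL7. None of 40 cell cycle genes was called, and the median was -0.01, with Mki67 at 1223 and 1217 CPM in DL6 and 1275 and 1288 CPM in DL7. None of 38 nuclear genes of the respiratory chain or of 53 ribosomal protein genes was called, each with a median of 0.09, and 34 and 40 of them were called higher in WT against EV, against 12.3% of all genes tested. None of the 9 mitochondrially encoded genes was called, and their median was -0.09. None was called among 23 genes of the amino acid stress response, 21 of unfolded protein and heat shock, 27 of Myc targets and ribosome making, 17 of the interferon response, 10 of MHC, 19 p53 targets, 13 immediate early genes, 36 of chromatin and cohesin and 19 of actin and adhesion, with medians of -0.10 to 0.05. In the 6 lists of other cell types, Gzma was the single call among 12 measured genes.

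Gene length moved with the sign of small differences. The median log2 ratio of DL6 over DL7 was 0.06 in the shortest of these 5 groups, up to 2.64 kb of exon, and -0.04 in the longest, from 7.78 kb. Between replicates the same medians were 0.00 and 0.01 for DL6 and 0.01 and -0.01 for DL7. WT against EV had the same order, at 0.20 and -0.14. Of the called genes, Tcf7, Gzma and Skp1a were in the shortest group and Itga4, Dnah8 and Notch3 in the longest. With the length trend removed, 6 calls remained, namely Tcf7, Itga4, Notch3, Arsi, Gm26917 and Gm25835, while Gzma, Skp1a, Timp2, Cyp11a1 and Dnah8 were not called. The log2 ratios of Cyp11a1 (0.746, against 0.743 before) and Timp2 (0.229, against 0.236) hardly moved, and those of Gzma (0.302, against 0.365), Skp1a (0.228, against 0.268) and Dnah8 (-0.247, against -0.33) were smaller. A lost call does not show that length made these differences. What sets the trend was not tested.

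**Figure D5:**
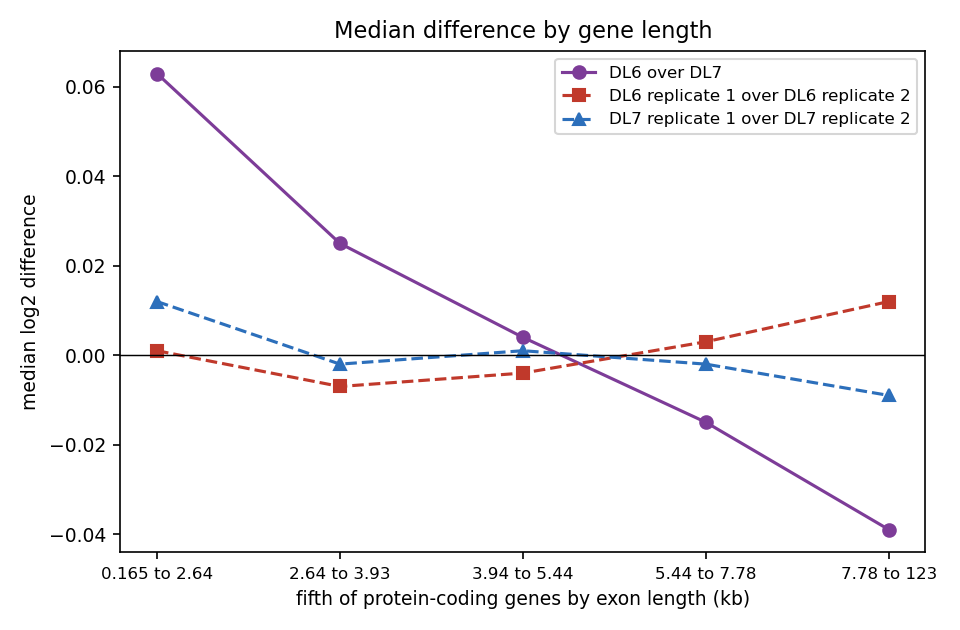
Median log2 difference (vertical axis) in 5 equal groups of protein-coding genes ordered by exon length (horizontal axis, kb), for DL6 over DL7 (solid) and between the 2 replicates of each (dashed). The DL6 over DL7 median is 0.06 in the shortest group and -0.04 in the longest, while the replicate medians stay within 0.01 of 0.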

How the data were processed

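RNA-seq libraries of the cell line were made from sorted cells with a stranded total RNA kit for small inputs and read as pairs on a NextSeq 550, per the labels' protocols. STAR 2.5.0a, HTSeq 0.6.1 and GRCm38 are named in the submitters' processing notes. The authors deposited whole-number read counts per gene for 45706 genes, ignoring strand and for each strand, and the reverse-strand counts were used, since the forward strand held 5.44% to 8.56% of stranded gene reads. The annotation release is not given in the sources used here. Symbols, positions and lengths came from GENCODE M21 (45143 genes matched). Counts were fitted with edgeR 4.0.16 in R 4.3.3 over all 14 libraries (3.82 to 9.48 M reads in genes, 7 residual degrees of freedom, common coefficient of variation 4.48%), after filterByExpr and TMM (factors 0.86 to 1.09), with a prior count of 0.125 and no replicate block. Standard errors and 95% intervals were derived from the quasi-likelihood F statistic. Alternatives included DESeq2 1.42.0. The tests were tried on simulated data. Named genes were Tcf7, up to 15 called genes in each direction with a mean of at least 2 CPM and groups that do not overlap, called list members, and 10 wild-type responders. For gene lists, examples were among the 3 most abundant members, a choice made after values were seen. The genes, lists and comparisons were chosen with earlier results of these data known. The 45 primary-cell libraries were not used here. The label molecule reads genomic DNA, but the protocol describes RNA, and the files were taken as RNA.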

Additional observations from a re-analysis of the deposited data

How the results depend on the processing

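The 11 calls between DL6 and DL7 shared 9 genes with those of DESeq2. DESeq2 gave an adjusted p to 3113 genes, with Cyp11a1 and Gm25835 not among them. Other size factors, a filter of 50 counts, counts that ignore strand and removal of ribosomal and mitochondrial genes shared 9 to 11. The fit without the DHMG libraries shared 8. All genes with a read gave 28 calls (10 higher, 18 lower), and the 4 DL6 and DL7 libraries alone gave 39 (19 higher, 20 lower), each including the 11. With the length trend removed there were 6 calls, 1 higher. A quasi-likelihood test against a fold of 1.2 (edgeR's glmTreat) called 0 genes in either direction (179 at an unadjusted p under 0.05), while DESeq2 without that minimum called 11. Leaving out any single DL6 or DL7 library, where the lone library is assumed to vary like the other groups, gave 1 to 8 calls, with 1 to 3 higher and 0 to 5 lower. WT against EV gave 1614 calls in DESeq2 and 1620 to 1760 without any single WT or EV library. No named gene changed direction among the 11 called. No effect shared by replicate number was visible (correlation of replicate differences between DL6 and DL7 -0.01), which does not settle whether replicates were handled as pairs. The replicate block gave 12 calls (5 higher, 7 lower), the 11 among them, and 2748 in WT against EV. For genes under 5 CPM depth limits what can be seen. Intervals rest on the replicate spread over all 14 libraries, with 2 libraries a group, and not on DL6 and DL7 alone.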

Other observations

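Genes just short of the threshold between DL6 and DL7 were named after their values were seen. Wdfy4, which acts in antigen cross-presentation by dendritic cells, had 160 and 163 CPM in DL6 and 195 and 196 CPM in DL7 (edgeR adjusted p = 0.0549). Fh1, the fumarase of the citric acid cycle, had 178 and 176 CPM in DL6 and 142 and 151 CPM in DL7 (edgeR adjusted p = 0.0649). Pcnt, a scaffold gene of the centrosome, had 431 and 417 CPM in DL6 and 485 and 506 CPM in DL7, and the small nucleolar RNA Snord17 had 18 and 17 CPM in DL6 and 27.6 and 28.4 CPM in DL7 (edgeR adjusted p = 0.0783 for both). In all 4 genes the DL6 libraries lay apart from the DL7 libraries, which a choice by small p nearly ensures.

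Among genes of very low level, Aldh1a3, an enzyme of retinoic acid synthesis, had 6 reads in each DL6 library and 0 in each DL7 library. Against a floor of 3 counts over the DL7 group this was at least 5.31-fold higher in DL6, and it was not called (edgeR adjusted p = 0.147). EV had 2.57 and 2.73 CPM of Aldh1a3, and DL6 had 1.09 and 1.03 CPM. Gli1, an effector of Hedgehog signalling, had 10 and 15 reads in DL6 and 3 and 1 reads in DL7, and was not called either (edgeR adjusted p = 0.153).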
